A study of Mus musculus with 17 samples.

Results

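The 10 genes described here belong to the ATF4 branch of the integrated stress response. The list holds the transcription factors Atf4 and Ddit3, the pseudokinase Trib3, the enzymes Asns, Psat1, Phgdh and Chac1, the mTORC1 regulator Sesn2, and the amino acid transporter subunits Slc7a5 and Slc3a2. They are 10 of the 35971 genes to which the deposited transcripts were summed. Of these genes 17011 passed the filter on low counts and were tested, and all 10 members were among them, the lowest with 23 counts in a library.

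Kidney RNA of 17 mice in 5 genotype groups was sequenced to ask what deletion of Hif1a, of Hif2a (gene symbol Epas1) or of both changes in a mouse model of TFE3-rearranged renal cell carcinoma. All mice carry an lsl-PRCC-TFE3 knock-in allele, in which a stop cassette keeps the fusion gene silent until Cre recombinase removes it, and the Cre comes from the Ksp (cadherin 16) promoter, which is active in kidney epithelial cells. The RNA is from whole kidneys, so it holds cells with and without Cre.

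The Cre(-) group (n = 4) lacks Cre, and replicates 1 and 2 of it carry a Hif1a flox allele while replicates 3 and 4 carry none. KI mice (n = 3) carry the knock-in allele with Ksp-Cre. The Hif1a KO group (n = 4) adds homozygous Hif1a flox alleles to that, the Hif2a KO group (n = 3) homozygous Hif2a flox alleles, and the DKO group (n = 3) both. Total expected counts per library ran from 18547274 to 22641506 in Cre(-), 16504419 to 18173319 in KI, 16710464 to 24668827 in Hif1a KO, 18001108 to 21711031 in Hif2a KO and 17347474 to 18635282 in DKO kidneys. CPM are counts scaled to library sizes after TMM scaling, which ran from 14585582 to 25618824, and on these 3 counts correspond to between 0.117 and 0.206 CPM, a floor that covers counting error only. Each library is a different mouse, so the spread between libraries is that between animals.

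In the integrated stress response, kinases that sense amino acid shortage, endoplasmic reticulum (ER) stress, double-stranded RNA or heme deficiency phosphorylate the translation factor eIF2. General protein synthesis then falls while Atf4 messenger RNA is translated more, and ATF4 protein, paired with other bZIP proteins, raises transcription of genes for amino acid uptake and synthesis and of regulators such as Ddit3 (CHOP) and Trib3. Because ATF4 is mainly controlled at translation, RNA levels of Atf4 are not a measure of its protein, and phosphorylated eIF2 was not measured here.

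Gpnmb, a known TFE3 target gene, separated the groups with Cre from the controls. It was at 1.85, 2.14, 0.993 and 1.33 CPM without Cre, at 13008.5, 14211 and 15629 CPM in KI kidneys, and at least 2806.5 CPM in each library of the other groups with Cre. Against KI kidneys Gpnmb was lower in Hif1a KO (log2 fold change -1.35 ± 0.34, adjusted p = 0.0318) and DKO kidneys (-1.80 ± 0.37, adjusted p = 0.00824) and did not pass in Hif2a KO kidneys (-0.77 ± 0.36, adjusted p = 0.262), with each library of these groups below each KI library. Of all genes tested 10.3%, 17.2% and 10.7% were below each KI library in every Hif1a KO, DKO and Hif2a KO library. Hif1a was 184 to 232 CPM in KI and 163 to 198 CPM in Hif1a KO kidneys, which overlap (log2 fold change -0.21 ± 0.13 SE, adjusted p = 0.372). Epas1 was 173, 192 and 179 CPM in KI and 146, 149 and 136.5 CPM in Hif2a KO kidneys, lower in each library but short of the threshold (log2 fold change -0.33 ± 0.09, adjusted p = 0.0788). In DKO kidneys Hif1a was 188, 174 and 203 CPM, which overlaps KI kidneys (-0.19 ± 0.14, adjusted p = 0.395), and Epas1 was 155.5, 165 and 158 CPM, below each KI and above each Hif2a KO library (-0.18 ± 0.09 against KI, adjusted p = 0.208). Gene totals include transcript parts outside a deleted exon and cells without Cre, so these totals do not check the deletions themselves.

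Levels of different genes are compared on the TPM scale, which divides by transcript length. In Cre(-) kidneys Slc3a2 was the most abundant member at 213 ± 18.8 TPM (SD, n = 4) and Atf4 was next at 84.2 ± 17.3, with no overlap between them or with the genes below. Ddit3 (27.8 TPM), Sesn2 (24.4), Psat1 (23.3), Phgdh (17.2) and Asns (8.54) followed, each overlapping its neighbour, and Chac1 (2.43), Slc7a5 (2.17) and Trib3 (1.20) were lowest and overlapped. In KI kidneys the order began with Slc3a2 (269.6 ± 20.8 TPM, n = 3) and Ddit3 (247 ± 24.2), which overlapped, followed by Atf4 (167 ± 11.9), which did not overlap either Ddit3 or Phgdh (34.5) below it. Slc3a2 had the highest mean in each of the 5 groups, and Chac1 had the lowest in each group with Cre. These Ddit3 levels leave out a second, short gene model of the same name, which held means of 7.39, 18.9, 33.0, 24.2 and 36.1 TPM in Cre(-), KI, Hif1a KO, Hif2a KO and DKO kidneys.

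**Figure D1:**
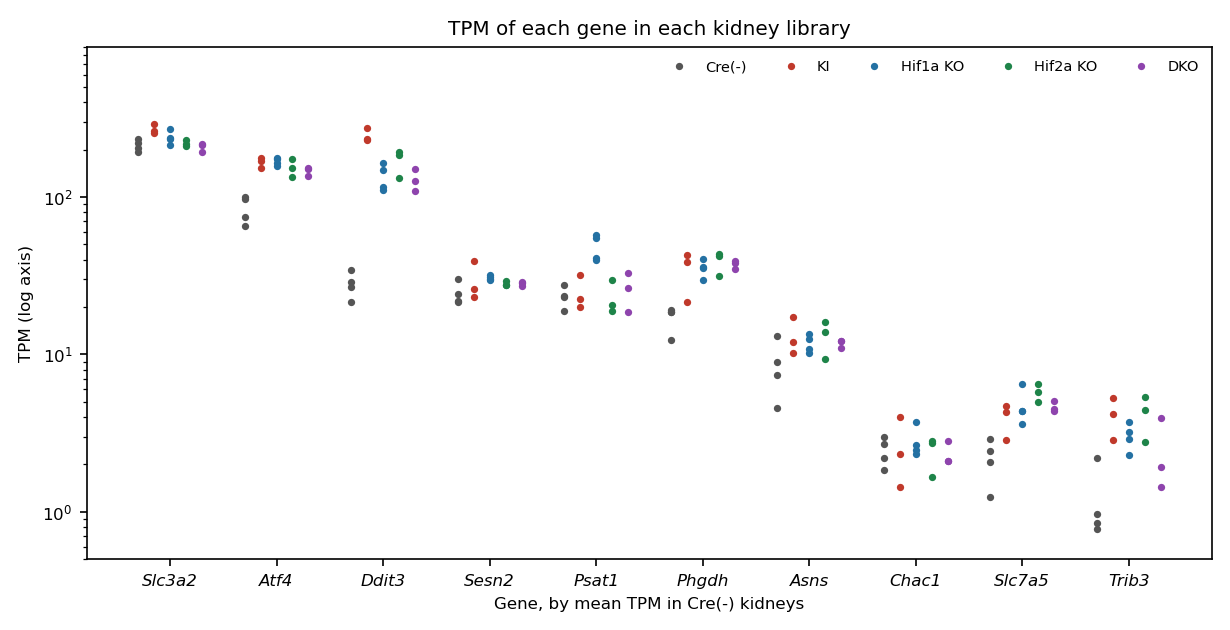
TPM of each of the 10 genes in each of the 17 libraries on a log axis, with genes ordered by their mean in Cre(-) kidneys and 1 point per library. Ddit3 lies among Sesn2 and Psat1 in Cre(-) kidneys and close to Slc3a2 in KI kidneys.

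RefSeq promoter entries (GRCm38.p6) matched 9 members, and Slc7a5 has none, and Psat1 has 2 entries. Searched on both strands of each entry were TTGCATCA and TTNCNTCA, an exact and a loose form of the C/EBP-ATF response element (each exact match is also a loose one), and CACGTG, an E-box. Of 32851 promoters the exact form is in 294 (0.895%), the loose form in 5411 (16%) and the E-box in 2349 (7.15%). Among the 9 members the exact form occurs in 1, Chac1, the loose form in 3, Chac1, Asns and Trib3, and the E-box in 0. The Trib3 match begins 14 bases after the start. Ddit3 is shown as the gene with the largest change among the members, Chac1 as the one with the exact motif and Asns as the other member with a match before its start. Capitals mark matches to the loose form, on either strand, and each sequence is the 250 bases before the start.
Ddit3 (chr10:127290543-127290792, plus strand): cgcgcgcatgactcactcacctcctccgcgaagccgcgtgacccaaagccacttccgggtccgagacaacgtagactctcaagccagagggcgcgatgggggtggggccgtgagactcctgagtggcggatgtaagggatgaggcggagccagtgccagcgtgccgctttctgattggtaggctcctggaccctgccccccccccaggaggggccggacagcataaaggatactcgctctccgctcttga
Chac1 (chr2:119350992-119351241, plus strand): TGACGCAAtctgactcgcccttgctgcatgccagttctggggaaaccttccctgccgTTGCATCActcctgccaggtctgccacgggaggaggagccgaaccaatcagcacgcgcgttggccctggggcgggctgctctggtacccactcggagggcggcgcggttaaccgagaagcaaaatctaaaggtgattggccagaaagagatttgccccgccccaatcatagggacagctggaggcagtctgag
Asns (chr6:7693210-7693459, minus strand): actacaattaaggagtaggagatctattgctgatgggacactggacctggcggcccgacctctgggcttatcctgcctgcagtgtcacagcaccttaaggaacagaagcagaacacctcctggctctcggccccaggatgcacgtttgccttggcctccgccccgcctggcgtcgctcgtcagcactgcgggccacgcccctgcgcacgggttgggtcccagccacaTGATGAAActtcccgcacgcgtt
In Chac1 the exact match begins 193 and a second loose match 250 bases before the start, and in Asns the loose match begins 23 bases before it. A match describes letters in this window and is not evidence of binding.

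The comparison of KI with Cre(-) kidneys asks what the activated fusion gene changes. The regulators Atf4, Ddit3 and Trib3 rose, with Ddit3 by the largest fold, as did Phgdh, the first enzyme of serine synthesis. In total 4 of the 10 members passed the threshold, all 4 higher in KI, where 60.9% of the genes tested passed (31.6% higher and 29.3% lower). At an unadjusted p under 0.05 there were the same 4, where 64.3% of all genes did. The median log2 fold change of the 10 was 0.32, beside 0.03 over all genes tested. Unless another test is named, p-values are from edgeR's quasi-likelihood test on counts with Benjamini-Hochberg adjustment over all genes tested.

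Ddit3, a bZIP factor induced late in a sustained response, measured 15.3, 17.9, 22.3 and 22.0 CPM in Cre(-) kidneys. In KI kidneys it measured 116.5, 110.4 and 149.8 CPM. Each KI library was above each Cre(-) library, which held for 28.9% of all genes tested. The log2 fold change was 2.7 ± 0.18 (SE), 6.48-fold, with an adjusted p of 8.26e-09. The gene's 3′ end overlaps Mars on the other strand. The kit keeps strand, but the counting step is not stated to use it. The second gene model named Ddit3 holds at most 29 counts in a library, though up to 74.2 TPM, and adding its counts, a choice made after seeing the data, kept the call.

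Atf4 itself measured 117, 91.6, 150.5 and 153 CPM in the controls and 188, 181.5 and 179.6 CPM in KI kidneys. KI libraries were again all higher, and they were closer together than the controls. The log2 fold change was 0.51 ± 0.14 (adjusted p = 0.00399), much smaller in size than that of Ddit3. Trib3, a pseudokinase that binds and restrains ATF4, measured 1.58, 1.61, 1.79 and 1.45 CPM in Cre(-) and 3.51, 5.49 and 5.71 CPM in KI kidneys. All KI libraries were higher, at a low level, and the log2 fold change was 1.61 ± 0.25 (adjusted p = 4.32e-05). The calls of Atf4, Ddit3 and Trib3 held in each of the 17 alternatives run.

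Among serine synthesis enzymes, Phgdh measured 15.6, 19.9, 21.8 and 20.9 CPM in Cre(-) and 31.0, 32.1 and 21.6 CPM in KI kidneys. KI replicate 3 fell within the control range, and the other KI libraries were above it. The log2 fold change was 0.53 ± 0.16 (adjusted p = 0.0107); without KI replicate 2 it was 0.43 and no longer passed. Psat1, the next enzyme, ranged from 36.1 to 52.4 CPM in Cre(-) and from 28.0 to 44.9 in KI kidneys, overlapped, and did not pass (log2 fold change -0.30, and 0.08 on the TPM scale; adjusted p = 0.234 from counts).

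Asns, the enzyme that makes asparagine and a much used readout of ATF4 activity in cultured cells, measured 16.3, 21.3, 7.88 and 13.3 CPM in Cre(-) and 14.9, 21.2 and 13.8 CPM in KI kidneys. These values overlap (log2 fold change 0.17 ± 0.25, adjusted p = 0.563), though on TPM the value was 0.61 and passed. Chac1, which degrades glutathione, was at 2.74 to 3.96 CPM in Cre(-) and 1.44 to 3.98 CPM in KI kidneys (adjusted p = 0.294). Sesn2, a leucine sensor that restrains mTORC1, was at 66.3 to 86.9 and 50.7 to 94.4 CPM, with 1 of the 3 KI libraries above all controls (adjusted p = 0.361). Leaving out KI replicate 2 gave Chac1 a log2 fold change of -0.78 and leaving out KI replicate 3 gave Sesn2 one of -0.50, both of which passed; on the TPM scale their signs flip to 0.02 and 0.24.

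Slc7a5, the transporter of large neutral amino acids, measured 4.04, 4.71, 9.00 and 8.02 CPM in Cre(-) and 10.3, 9.48 and 6.90 CPM in KI kidneys. The Cre(-) libraries formed no single level, and KI replicate 3 lay inside the control range (log2 fold change 0.47 ± 0.25, adjusted p = 0.116); without Cre(-) replicate 3 it was 0.67 and on TPM 0.65, and both passed. Its partner Slc3a2, the heavy chain that carries several transporters to the cell surface, measured 335, 271.6, 282 and 272 CPM in Cre(-) and 237, 235 and 285 CPM in KI kidneys. Here KI replicates 1 and 2 were below each control and replicate 3 was not. The log2 fold change was -0.20 ± 0.10 (adjusted p = 0.0797), -0.30 without KI replicate 3, which passed, and 0.34 on the TPM scale (adjusted p = 0.00435 by limma), where the sign flips.

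**Figure D2:**
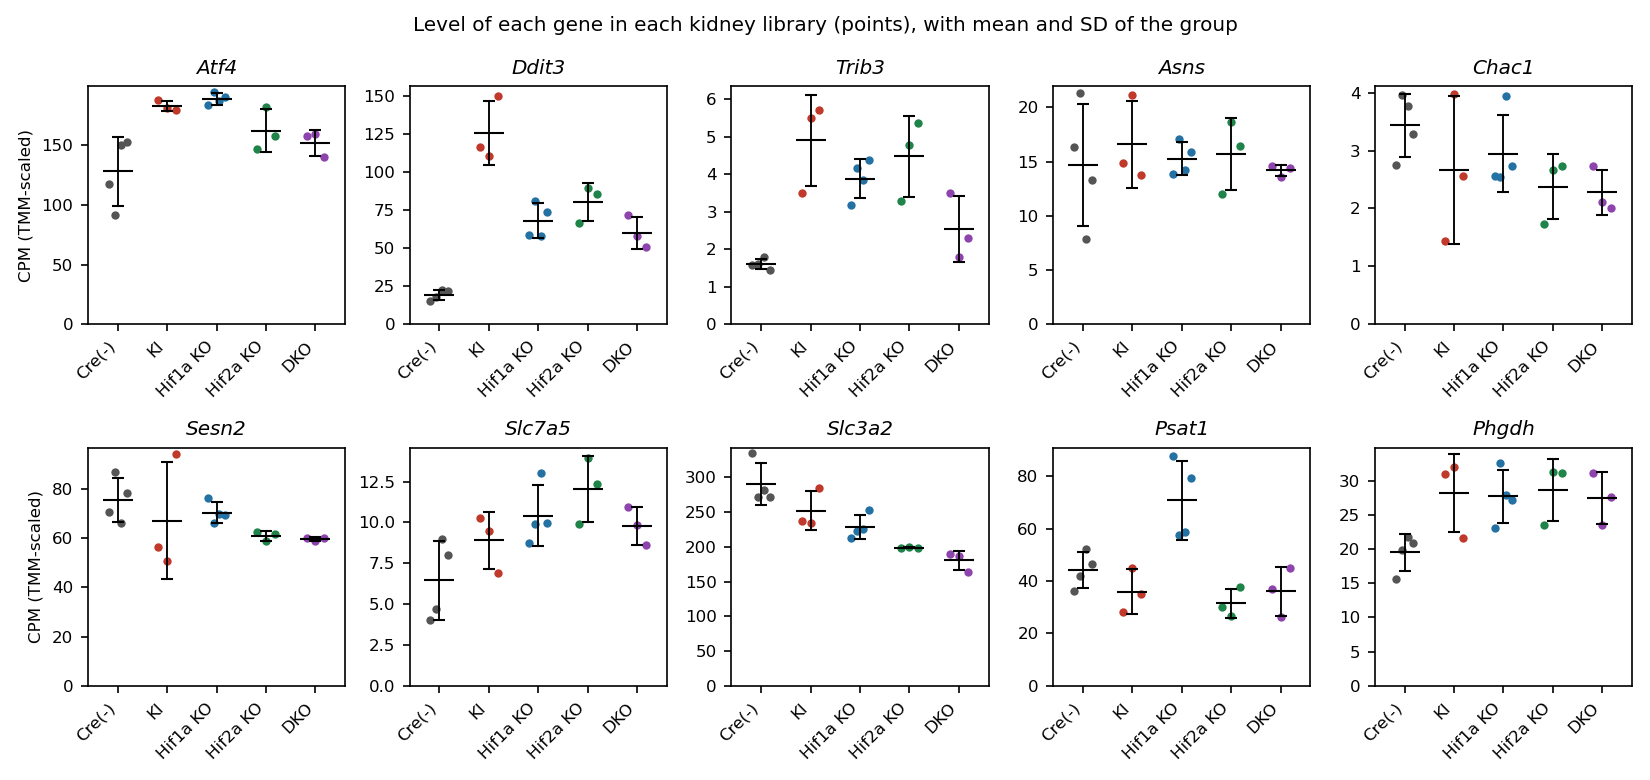
CPM on TMM-scaled library sizes for each of the 10 genes, with 1 point per library and the mean and SD of each group (n = 4, 3, 4, 3 and 3). Ddit3 lies between 15.3 and 22.3 CPM in Cre(-) libraries and between 110.4 and 149.8 CPM in KI libraries, with the knockout groups in between.

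Scaling matters for directions in comparisons with Cre(-) kidneys. TPM with limma moved the median log2 fold change of all genes in KI against Cre(-) kidneys from 0.03 to 0.378 and the split of calls from 5381 higher and 4981 lower to 8843 and 2458. Genes of the mitochondrial genome held 31.8% to 36.4% of TPM in Cre(-) libraries and 14.2% to 21.0% in the other 13. The cause of the shift was not tested. In a count fit that leaves these genes out before scaling, chosen after seeing the data, 5 members passed in KI against Cre(-) kidneys, Slc3a2 (log2 fold change -0.23) being the addition, where 10322 of 17017 genes did.

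The controls differed among themselves for several members. Cre(-) replicates 1 and 2, with a Hif1a flox allele, had lower Atf4, Ddit3, Slc7a5, Psat1 and Phgdh and higher Asns values than replicates 3 and 4, without one. Trib3, Chac1, Sesn2 and Slc3a2 overlapped between these pairs. With 2 libraries on each side such a split is common, and its share over all genes was not computed. Whether the allele has a part in it was not tested. Against the libraries without the allele alone the log2 fold change of Atf4 in KI kidneys was 0.27 and passed, that of Slc7a5 was 0.07 and did not, and that of Asns was 0.66 and passed. Against those with it alone, a choice made after seeing the data, the values were 0.81, 1.03 and -0.17, of which the first and second passed. Phgdh was at 0.41 without the allele, short of the threshold, and 0.68 with it. Ddit3 (2.51 and 2.92) and Trib3 (1.60 and 1.63) passed against either pair.

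Hif1a KO against KI kidneys asks how the members differ when Hif1a is also deleted. The paper reports less tumor development in Hif1a KO and DKO than in KI kidneys, and no such effect in Hif2a KO kidneys. In bulk tissue a change within cells cannot be told apart from a change in tumor share, and the part of tumor share was not tested. Ddit3 was lower and Psat1 higher in Hif1a KO kidneys, 2 of 10 members, where 5.44% of all genes passed (2.57% higher, 2.86% lower). At an unadjusted p under 0.05 there were the same 2, where 22.1% of all genes did. Ddit3 measured 58.9, 81.0, 57.6 and 74.0 CPM in Hif1a KO kidneys, each below the KI libraries and above the Cre(-) ones, and fell by 0.89 on the log2 scale (SE 0.17, adjusted p = 0.0106). That call held in each of the 15 alternatives run, with log2 fold changes from -0.99 to -0.74. Psat1, which passes serine synthesis on from the Phgdh product, measured 87.9, 57.4, 58.7 and 79.2 CPM in Hif1a KO kidneys against 28.0, 44.9 and 34.9 in KI kidneys. Each Hif1a KO library was higher, and the log2 fold change was 0.98 ± 0.21 (adjusted p = 0.019). Of all genes tested 8.96% were higher and 10.3% lower in every Hif1a KO library than in each KI library. Without Hif1a KO replicate 1 (0.85), KI replicate 1 (0.83) or KI replicate 3 (0.96), or with only these groups in the fit, Psat1 no longer passed. The count over all genes was 925, and 308 without Hif1a KO replicate 1, 273 without Hif1a KO replicate 3, 361 without KI replicate 2, 514 without KI replicate 3, 246 with only these groups in the fit, 479 with a replicate block and 1665 by DESeq2; Sesn2 passed at 0.39 without KI replicate 3.

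Hif2a KO against KI kidneys, the same question for Hif2a, gave 0 members by edgeR, where 1.39% of all genes passed (0.741% higher, 0.647% lower). At an unadjusted p under 0.05 there were 2, Ddit3 and Slc3a2, where 19.2% of all genes did, and DESeq2 called these 2, where it called 1015 of 16004 genes. Ddit3 measured 66.2, 89.6 and 85.6 CPM in Hif2a KO kidneys, each below the KI libraries (log2 fold change -0.64 ± 0.18, adjusted p = 0.0778). Slc3a2 measured 198.5, 199.2 and 198.2 CPM, also below each KI library (-0.35 ± 0.10, adjusted p = 0.0909). Of all genes tested 10.7% were lower in every Hif2a KO library than in each KI library. The median log2 fold change of the 10 members was -0.15, beside -0.01 over all genes tested. The number of genes passing over all was 236, and 13 without KI replicate 3, 88 without KI replicate 2, 857 without KI replicate 1, 129, 43 and 79 without Hif2a KO replicates 1, 2 and 3, 76 with a replicate block and 2 with only these groups in the fit.

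DKO against KI kidneys asks what deletion of both changes. Ddit3, Trib3 and Slc3a2 were lower, 3 of 10 members, where 12.7% of all genes passed (6.53% higher, 6.19% lower). At an unadjusted p under 0.05 there were the same 3, where 29.1% of all genes did. Ddit3 measured 71.6, 58.2 and 50.8 CPM in DKO kidneys, below each KI library, and fell by 1.06 on the log2 scale (SE 0.18, adjusted p = 0.00342), a call that held in each of the 14 alternatives run. Slc3a2 measured 189, 187 and 164 CPM, below each KI library, and fell by 0.48 (SE 0.10, adjusted p = 0.00883). Trib3 measured 3.51, 1.79 and 2.29 CPM, of which the first equals the lowest KI library to 3 digits, and fell by 0.95 (SE 0.26, adjusted p = 0.0281). This call was lost without DKO replicate 2 (-0.76), DKO replicate 3 (-0.88), KI replicate 2 (-0.86) or KI replicate 3 (-0.83), on TPM (-0.61), with a replicate block and with only these groups in the fit (-0.93), so it held in 7 of 14 alternatives. Atf4 was below each KI library in DKO kidneys at 158, 159 and 139.9 CPM without passing (log2 fold change -0.26, adjusted p = 0.249). Of all genes tested 17.2% were lower in every DKO library than in each KI library. Over all genes 2164 passed, and 722, 790 and 915 without DKO replicate 2, DKO replicate 3 and KI replicate 3, 1028 with only these groups in the fit and 2905 by DESeq2.

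**Figure D3:**
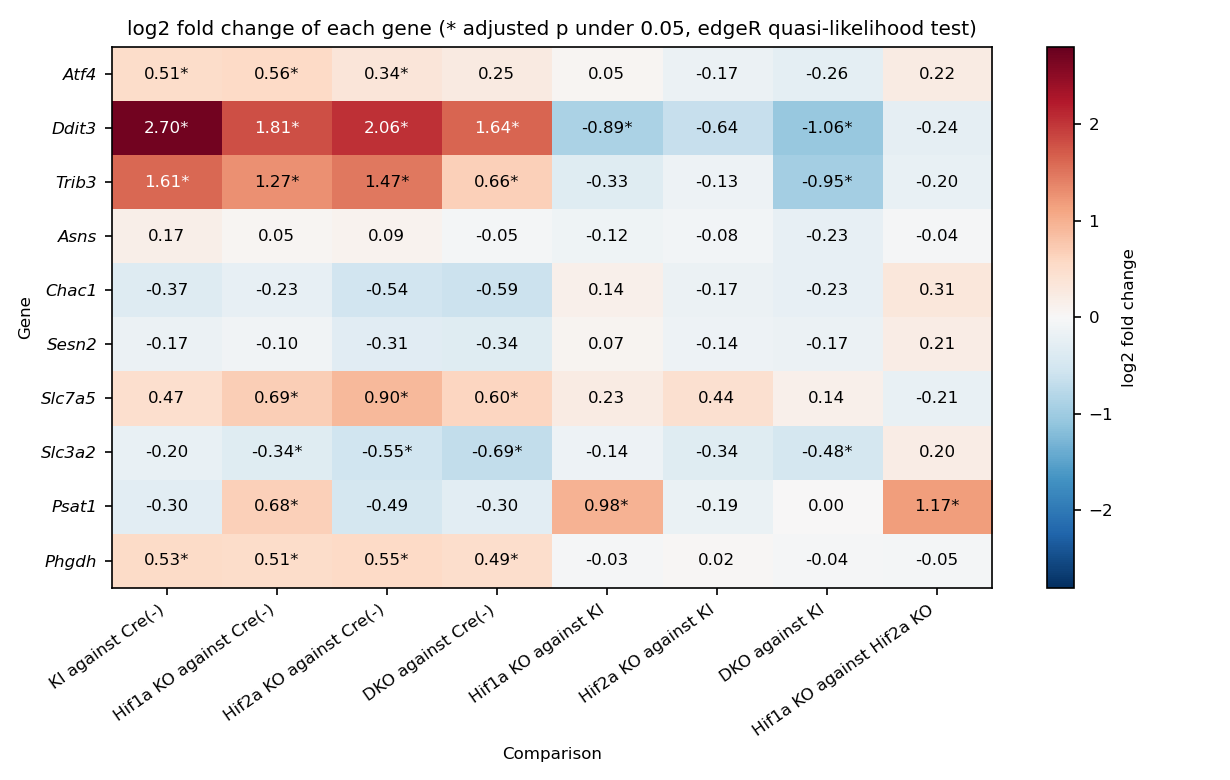
Log2 fold change of each of the 10 genes (vertical axis) in 8 comparisons (horizontal axis), from the edgeR fit of all 17 libraries, with an asterisk where the adjusted p is under 0.05. Ddit3 is positive in each comparison with Cre(-) kidneys and negative in each comparison of a knockout with KI kidneys; on the TPM scale Slc3a2 is 0.34 in KI against Cre(-) kidneys in place of -0.20.

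Hif1a KO and Hif2a KO kidneys were also compared directly. Psat1 alone of the 10 members passed, where 0.429% of all genes did (0.329% higher, 0.0999% lower) and 14.9% at an unadjusted p under 0.05, with 30.2, 26.6 and 37.5 CPM in Hif2a KO kidneys, each below the Hif1a KO libraries (log2 fold change 1.17 ± 0.21, adjusted p = 0.0305). It lost the call without Hif1a KO replicate 1 (1.04), 3 (1.24) or 4 (1.10), without Hif2a KO replicate 2 (1.06) or 3 (1.32), on TPM (1.04) and with a replicate block (1.14), so it held in 8 of 15 alternatives. Each Hif1a KO library was above each Hif2a KO library for 8.31% of all genes tested. Over all genes 73 passed, and between 1 (without Hif2a KO replicate 2) and 193 (without Hif2a KO replicate 1) when a library was left out, 19 with a replicate block, 132 with only these groups in the fit and 537 by DESeq2. The test of whether the effect of one deletion depends on the other, on all groups, called 0 members and 0 genes by edgeR. At an unadjusted p under 0.05 it gave 1 member, Psat1 (log2 -0.78 ± 0.31, adjusted p = 0.78), where 5.95% of all genes did, and DESeq2 called 0 members and 31 of 16988 genes.

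The knockout groups were compared with Cre(-) kidneys as well, which share their control libraries with each other and with the KI comparison, so their values stand side by side only. Members passing numbered 7 in Hif1a KO (6 higher), 6 in Hif2a KO (5 higher) and 5 in DKO kidneys (4 higher), where 61.9%, 61.9% and 58.3% of all genes passed. Of all genes 31.9%, 32.0% and 30.4% were higher and 30.1%, 29.9% and 27.9% lower. At an unadjusted p under 0.05 there were 7, 7 and 6 members, where 65.5%, 65.1% and 62.3% of all genes did. Ddit3 was higher at 1.81 ± 0.17, 2.06 ± 0.17 and 1.64 ± 0.17 on the log2 scale, beside 2.7 in KI kidneys, and each of its calls held in each alternative run. Trib3 was higher at 1.27, 1.47 and 0.66, and Phgdh at 0.51, 0.55 and 0.49. Slc7a5 was higher at 0.69, 0.90 and 0.60, with 8.72 to 13.0 CPM in Hif1a KO, 9.89 to 13.9 in Hif2a KO and 8.59 to 10.9 in DKO libraries. Atf4 passed in Hif1a KO (0.56) and Hif2a KO (0.34) but not in DKO kidneys (0.25, adjusted p = 0.127), and Psat1 passed in Hif1a KO kidneys alone (0.68). Slc3a2 was lower at -0.34, -0.55 and -0.69, with each library below each control, whereas on TPM it was 0.16, 0.05 and -0.03 and passed in none of these. Of all genes tested 27.3%, 28.8% and 28.5% were below each control in every Hif1a KO, Hif2a KO and DKO library.

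Several of these calls were lost against the controls without the flox allele or when 1 library was left out. Against the 2 controls without the allele Slc7a5 was at 0.29, 0.52 and 0.21 in Hif1a KO, Hif2a KO and DKO kidneys and passed in none, and Phgdh, at 0.38, 0.45 and 0.38, passed in none. Psat1 in Hif1a KO (0.52) and Atf4 in Hif2a KO kidneys (0.12) did not pass against them either. Trib3 in DKO kidneys also did not pass, but its value of 0.66 was that of the fit with all controls. In Hif1a KO kidneys Slc7a5 lost its call without Hif1a KO replicate 3 (0.57), Cre(-) replicate 1 (0.53) or Cre(-) replicate 2 (0.57). In Hif2a KO kidneys Atf4 lost it without Cre(-) replicate 1 (0.30) or 2 (0.23) or Hif2a KO replicate 2 (0.25) or 3 (0.36), and with only these groups in the fit (0.35). Psat1, at -0.49 and short of the threshold there (adjusted p = 0.0538), passed in 7 of 17 alternatives. These were the fits without Cre(-) replicate 1 (-0.58) or Hif2a KO replicate 3 (-0.64), without mitochondrial genes (-0.51), with only these groups (-0.49), with DESeq2 (-0.50) or its size factors (-0.50), and against controls without the flox allele (-0.64). In DKO kidneys Trib3 lost its call without Cre(-) replicate 1 (0.65), 2 (0.67) or 4 (0.61) or DKO replicate 1 (0.35), with no filter (0.68), only these groups (0.66) or a replicate block (0.69), on TPM (0.62) and against the controls with the flox allele alone (0.68), so it held in 7 of 17 alternatives. There Slc7a5 lost it without Cre(-) replicate 1 (0.44) or 2 (0.49) or DKO replicate 1 (0.52) or 2 (0.60), with no filter (0.62), only these groups (0.60) or without mitochondrial genes (0.59). Phgdh lost it without Cre(-) replicate 1 (0.40) or DKO replicate 1 (0.39), and Atf4 gained one without Cre(-) replicate 4 (0.35), on TPM (0.81) and against the controls with the flox allele alone (0.56). With only the compared groups in the fit Sesn2 passed in Hif2a KO (-0.30) and DKO kidneys (-0.34) and Chac1 in DKO kidneys (-0.59), whereas on TPM Sesn2 was at 0.21 in both, and Asns passed in Hif2a KO kidneys on TPM (0.62). The count in DKO kidneys was then 2 without Cre(-) replicate 1, 3 without Cre(-) replicate 2 and 2 without DKO replicate 1, where 9348, 9299 and 8705 of all genes passed.

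Within groups the members varied together only in part. After group means were subtracted, the 45 pairs of members had a median correlation of 0.13 over the 17 libraries. Rounded to 2 digits, 29 were positive, 14 negative and the rest 0.0. They ran from -0.57 for Sesn2 with Phgdh to 0.74 for Atf4 with Slc7a5. Ddit3 with Trib3 had 0.57 and Atf4 with Ddit3 0.54. Of 17010 other genes tested, those most like Atf4 by this measure were Irx1 (0.912), Tgfb1 (0.892) and Stat5a (0.886), and those most like Ddit3 were Olfr718-ps1 (0.908), Bhlhe40 (0.901) and Tmem98 (0.895). For Trib3 they were Cast (0.923), C2cd2 (0.92) and Slc7a14 (0.913), and for Asns Cops8 (0.895), Uba2 (0.861) and Tlr6 (0.831). These are descriptions of the same 17 libraries, which share depth and cell makeup within a mouse. The genes named were picked as the highest of 17010 values. No background was computed for such maxima or for the median of the member pairs.

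Upstream of ATF4, 10 genes for eIF2 kinases, eIF2 phosphatase subunits and their regulators were tested in KI against Cre(-) kidneys, of which 4 rose and 3 fell on counts, against 6 and 0 on TPM (median log2 fold change -0.01 on counts). Over all genes 31.6% rose and 29.3% fell on counts, and on TPM 8843 of 17011 rose and 2458 fell, which is the background for this and the lists that follow in this comparison. Impact, an inhibitor of the amino acid sensing kinase GCN2, went from 36.9 ± 1.32 to 442 ± 57.6 CPM (log2 fold change 3.58 ± 0.13, adjusted p = 3.52e-11). Eif2ak3, the ER stress kinase PERK, went from 56.6 ± 4.97 to 90.7 ± 5.42 CPM (0.68 ± 0.08). Eif2ak1, the heme-regulated kinase, fell by 0.44 and Ppp1r15b, a phosphatase subunit, fell by 0.42, but on TPM they were at 0.03 and 0.07 and did not pass. The 5 subunits of eIF2B, the exchange factor that phosphorylated eIF2 blocks, gave 0 calls by edgeR on counts and 2 higher on TPM. On counts Eif2b1 was at -0.15, Eif2b2 at -0.09, Eif2b4 at -0.13 and Eif2b5 at -0.12, and on TPM at 0.15, 0.38, 0.17 and 0.31. In DKO against KI kidneys Impact fell by 0.57 (adjusted p = 0.0135) and was at -0.39 on TPM, without passing. Eif2ak2, the kinase that senses double-stranded RNA, rose there by 0.45 (adjusted p = 0.0273). On TPM Eif2ak2 was at 0.53, no smaller a change, but did not pass (adjusted p = 0.0572 by limma). Eif2ak2 was also the 1 gene of this list that passed in Hif2a KO against KI kidneys (0.54, adjusted p = 0.0464). On TPM it was at 0.56 there and did not pass (adjusted p = 0.116 by limma).

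Among 8 bZIP partners and co-regulators of ATF4, 7 rose and 1 fell in KI against Cre(-) kidneys on counts and on TPM (median log2 fold change 1.39 beside 0.03 over all genes). Atf3, a stress-induced repressor of the same family, went from 2.06 ± 0.969 to 39.3 ± 11.4 CPM (log2 fold change 4.25 ± 0.29). Nupr1, a stress-induced chromatin protein, rose by 2.48 and Jun by 1.74, and Maf fell by 1.60. Atf3 was among 2 of these genes lower in Hif1a KO (-1.19 ± 0.25, adjusted p = 0.0163) and 4 lower in DKO against KI kidneys (-1.58, adjusted p = 0.00376; on TPM 1 of the 8 was lower there), with 0 changed in Hif2a KO kidneys by edgeR; over all genes 2.86%, 6.19% and 0.647% were lower in these comparisons. Of 11 immediate early genes 9 rose and 0 fell in KI kidneys, among them Nr4a1 (log2 fold change 6.53 ± 0.22), Egr2 (3.73) and Egr1 (3.22); 2 fell in Hif1a KO and 2 in DKO against KI kidneys (1 on TPM). Of 4 tested secreted factors, Gdf15 went from 2.46 ± 0.524 to 102 ± 13.9 CPM (5.36 ± 0.26, adjusted p = 4.81e-10) and Stc2 from 7.76 ± 0.824 to 64.9 ± 5.56 CPM (3.07 ± 0.19). On counts Angptl4 fell by 1.41 and Vegfa by 0.36, and neither passed on TPM (-0.99 and 0.09). Stc2 was lower (-0.78) and Angptl4 higher (2.34) in Hif1a KO than in KI kidneys. Fgf21 did not pass the filter.

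**Figure D4:**
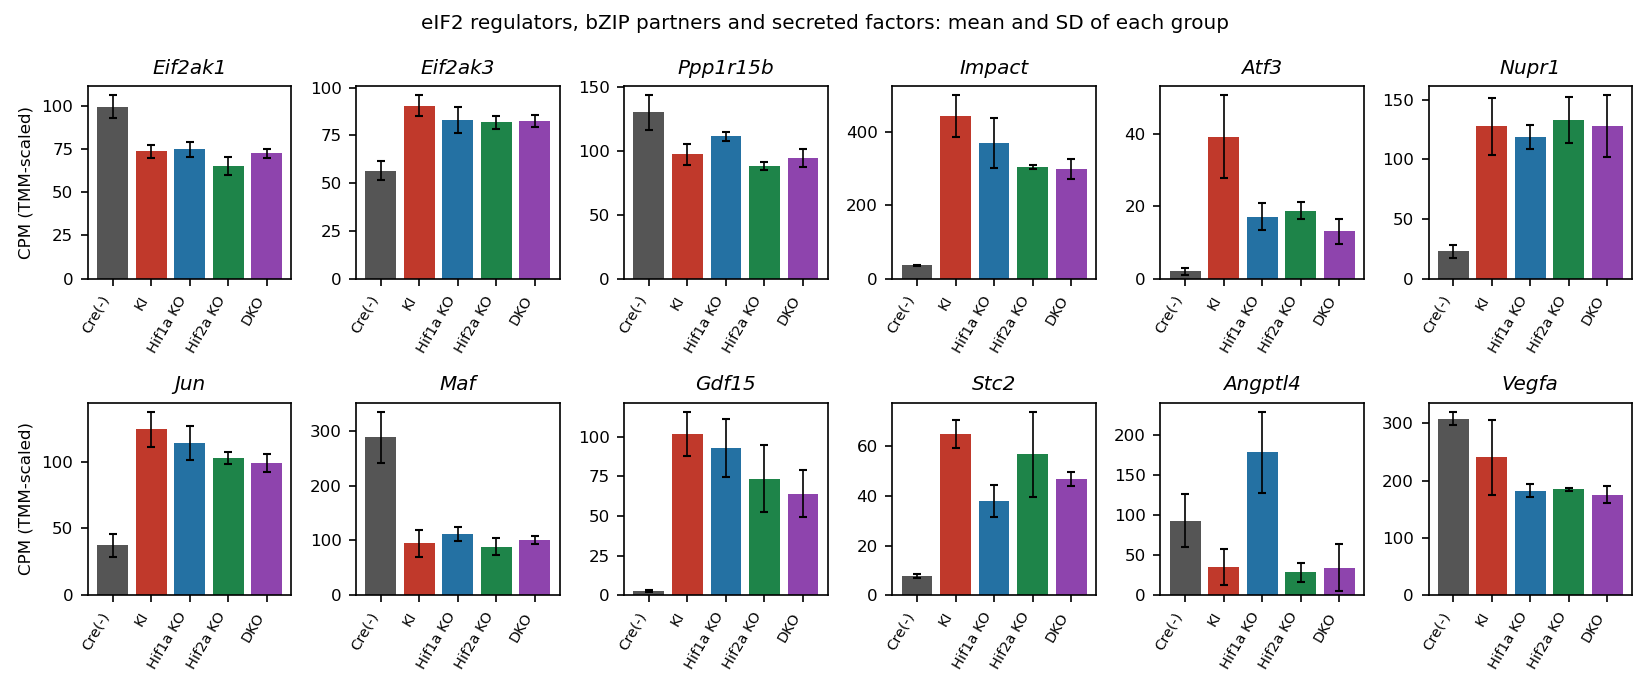
Mean CPM on TMM-scaled library sizes (bars from 0) and SD (error bars) of 12 genes in the 5 groups, taken as the 4 with the smallest adjusted p in each of 3 lists. Gdf15 rises from 2.46 CPM in Cre(-) to 102 CPM in KI kidneys, and Impact from 36.9 to 442 CPM. Eif2ak1, Ppp1r15b and Vegfa are lower on this scale and not on TPM, and Angptl4 did not pass on TPM.

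Lists of amino acid genes, some of which hold members, moved in both directions in KI against Cre(-) kidneys, where 31.6% of all genes rose and 29.3% fell on counts. Of 7 transporters with known ATF4 sites 3 rose (Slc38a2 by 0.67, Slc7a1 by 0.57 and Slc1a5 by 0.56) and Slc1a4 fell by 1.11. Of 11 heterodimeric transporter subunits 1 rose and 6 fell, led by Slc7a8 (-3.33), Slc7a9 (-2.63), Slc7a12 (-2.46) and Slc3a1 (-2.23), on TPM 3 and 6, the members Slc3a2 and Slc7a5 being the additions. Of 14 serine, glycine and one-carbon enzymes 3 rose and 8 fell (on TPM 4 and 6), with Mthfd1l higher (1.84) and Aldh1l1 (-2.30), Shmt2 (-2.03) and Mthfd1 (-1.86) lower. Of 10 enzymes of proline, aspartate, alanine, sulphur and other amino acids, Asns among them, 2 rose and 5 fell (on TPM 3, with Asns, and 4), Gldc by the largest fold of those named (-4.02), beside Gpt2 (-1.78), Cth (-1.71) and Got1 (-1.16). Gldc, which cleaves glycine, was higher in Hif1a KO than in KI kidneys (2.36 ± 0.55, adjusted p = 0.0243). Of the 7 transporters with known ATF4 sites 2 were also higher there, on counts and on TPM. Over all genes 2.57% were higher in that comparison on counts. Phgdh, a member that rose, thus stands in a list where more genes fell, with the list's median at -0.41 on counts and 0.09 on TPM.

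Of 20 cytosolic aminoacyl-tRNA synthetases 5 rose and 3 fell on counts, where 60.9% of all genes passed, against 18 and 0 on TPM, where 8843 of 17011 genes rose and 2458 fell, with Sars (0.93) and Vars (0.85) higher on both scales, Dars at -0.52 on counts and -0.05 on TPM, and Mars1 at -0.30 on counts and 0.33 on TPM. Of 17 mitochondrial synthetases 0 rose by edgeR and 14 fell (median log2 fold change -0.71), with Rars2 at -1.04, Lars2 at -0.94, Fars2 at -0.83 and Aars2 at -0.71; on TPM 2 rose and 4 fell. For 20 ER chaperones and genes of the ATF6 and IRE1 arms, 3 rose (Ern1, Xbp1 and Ero1l, at 0.56, 0.50 and 0.37) and Herpud1 fell by 0.81, with a median of 0.00, while on TPM 14 rose and 0 fell. Of 6 genes listed as family members of the regulators 2 rose and 2 fell, on TPM 3 and 1. Ddit4 rose by 1.47 and Sesn3 by 0.30, and Chac2 fell by 2.19 and Trib2 by 0.78. Ddit4 shares a name with Ddit3 but is not of its family. Of 10 mTORC1 amino acid sensing genes 1 rose and 4 fell on counts, with Mtor at -1.17, Castor1 at -0.86, Castor2 at -0.78 and Nprl2 at -0.66, and 4 rose and 1 fell on TPM.

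**Figure D5:**
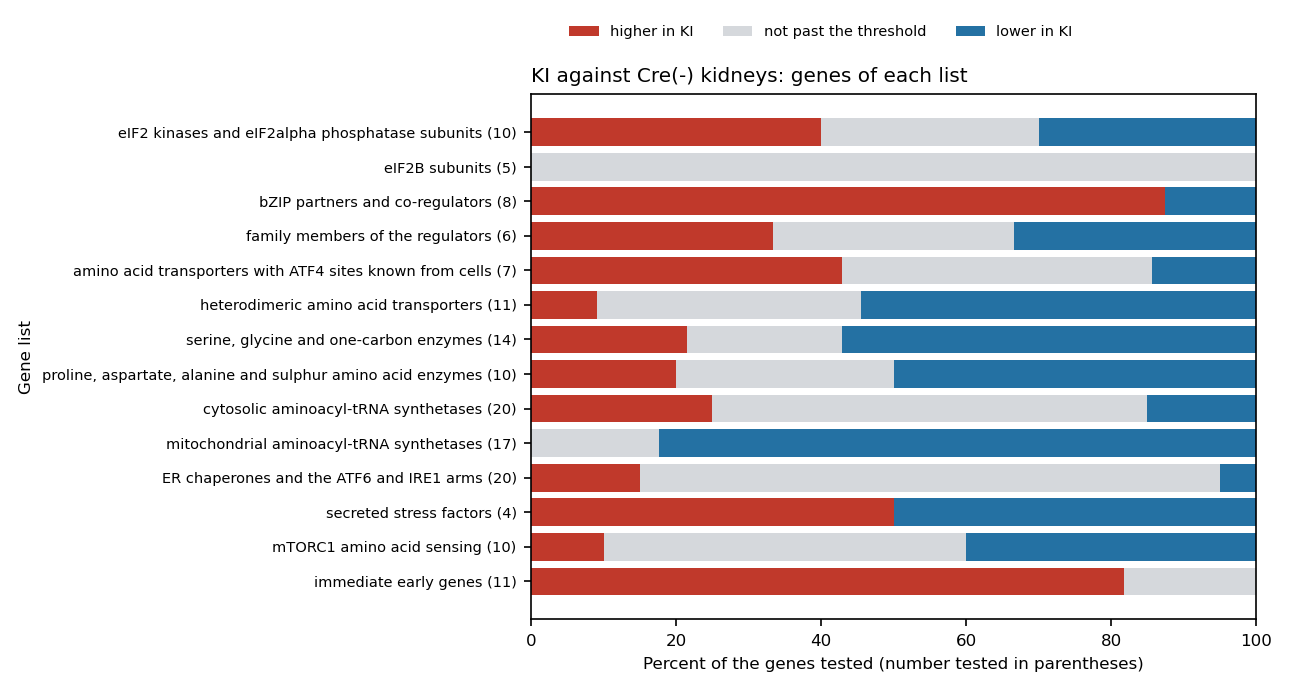
Percent of the tested genes of each of 14 lists (vertical axis, number tested in parentheses) that were higher, not past the threshold or lower in KI against Cre(-) kidneys on counts (horizontal axis, percent). The bZIP list has 7 of 8 higher and the mitochondrial synthetases 14 of 17 lower; on TPM the latter split is 2 higher and 4 lower, and the eIF2, cytosolic synthetase, ER and mTORC1 lists have more genes higher than on counts.

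Markers of cell types moved with the groups, both against Cre(-) kidneys and against KI kidneys, and thus alongside the members' changes in these comparisons; their part in those changes was not tested, and fewer cells of a type cannot be told apart from less RNA per cell in bulk tissue. All 10 proximal tubule markers fell in KI kidneys, where 29.3% of all genes fell and 31.6% rose. Their summed level was 25149, 18945, 21645 and 22520 CPM in Cre(-), 832, 735 and 866.5 in KI, 2759, 964, 1445 and 1308 in Hif1a KO, 2461, 729 and 971 in Hif2a KO and 1611, 2735 and 1826 CPM in DKO libraries. The gene named with each list is the one with the highest mean TPM over the 17 libraries and need not be highest in each group; here it is Kap, which was at 5686 to 10513.5 CPM in Cre(-) and 13.2 to 19.3 CPM in KI libraries. Against KI kidneys 5 of them were higher in Hif1a KO and 6 in DKO kidneys (4 and 7 on TPM). Over all genes 2.57%, 0.741% and 6.53% were higher in Hif1a KO, Hif2a KO and DKO against KI kidneys on counts. In KI kidneys all 5 thick ascending limb markers (Umod; 5550.4 to 7163 CPM summed in Cre(-), 851 to 1512 in KI, 2134 to 4359.9 in Hif1a KO, 1976 to 3656 in Hif2a KO and 2727 to 4482 in DKO libraries), all 3 distal convoluted tubule markers (Slc12a3; 2352 to 3162 and 159.6 to 242 CPM) and all 4 podocyte markers (Podxl; 538 to 618 and 106 to 162 CPM) fell. Of intercalated cell markers 4 of 5 fell (Atp6v0d2; 274 to 331 and 62.2 to 104 CPM), and of principal cell markers 3 of 4 fell (2 on TPM) and 1 rose, with sums of 296 to 387 and 295 to 362 CPM; Aqp2, the gene named with this list, fell on counts (log2 fold change -1.28) and did not pass on TPM (-0.85). Against KI kidneys thick ascending limb markers were higher for 3 of 5 in Hif1a KO, 1 in Hif2a KO and 4 in DKO kidneys (5 on TPM), distal convoluted tubule markers for 1 of 3 in Hif1a KO and 1 in DKO kidneys, and principal cell markers for 2 of 4 in DKO kidneys.

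Markers of other cells rose in KI kidneys. Leukocyte markers were higher for 7 of 8 (Cd74; 300.3 to 631 CPM summed in Cre(-), 2411 to 3082 in KI, 2365 to 2872 in Hif1a KO, 2763 to 3520.2 in Hif2a KO and 2096 to 2905 in DKO libraries). Fibroblast markers were higher for 4 of 5 (Dcn; 172 to 230.0, 482 to 515, 633 to 779, 818 to 879.9 and 766 to 1181 CPM in the same order) and injured tubule markers for 4 of 5 (Lcn2; 158.5 to 192 in Cre(-) and 567 to 784 CPM in KI libraries). Against KI kidneys fibroblast markers were higher for 3 of 5 in Hif1a KO, 3 in Hif2a KO and 4 in DKO kidneys. Over all genes 2.57%, 0.741% and 6.53% were higher in these comparisons, and 2.86%, 0.647% and 6.19% were lower. Injured tubule markers were lower for 2 of 5 in DKO kidneys (1 on TPM), and of leukocyte markers 1 was higher and 1 lower in Hif1a KO (0 and 1 on TPM) and in DKO kidneys. Of 4 endothelial markers 2 fell on counts (Emcn; 251 to 371 and 219 to 227 CPM) and 1 rose on TPM. Adipocyte markers (Cidec) summed to 421 CPM in KI replicate 2, against 12.5 and 28.6 CPM in the other KI libraries and at most 62.2 CPM in any other library, and 2 of 4 rose in KI kidneys; the fits without KI replicate 2 are those given above for Phgdh, Chac1 and Trib3. No marker of these lists was at 0 in all libraries. Of 5 sex-linked genes 4 were found and 2 were tested, of which Kdm5d fell on counts and not on TPM. Kdm5d, on the Y chromosome, was at 7.54 to 19.4 CPM over the 17 libraries. Eif2s3y, on the same chromosome, had at most 3 counts in each library.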

How the data were processed

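Kidney RNA of 17 mice was sequenced as stranded mRNA libraries. The study's methods name Trim Galore 0.6.6 with cutadapt 2.5, STAR 2.7.9a against hg38, RSEM, and name hg38 or GRCm38 as the source of the annotation. Mouse transcripts are listed in the files, and GRCm38 gives the positions here. The authors deposited expected counts per transcript, which are estimates and not scaled between libraries, and TPM per transcript, which the authors scaled for length and library total. Of 119353 transcripts 116770 were matched to GENCODE M21, holding at least 99.04% of each library's counts; the rest were left out.

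Counts and TPM were summed per gene and the counts rounded. edgeR 4.0.16 (R 4.3.3) was fitted to all libraries with 1 coefficient per group, TMM scaling, a low-count filter (filterByExpr, minimum count 10) and no covariate; a threshold of 0.05 was set on the Benjamini-Hochberg adjusted p. Scripts were tested on simulated data. For Ddit3 the gene model with most counts was used. Alternatives were DESeq2 1.42.0, its size factors in edgeR, no filter, a fit of the compared groups alone, a block for replicate number, limma 3.58.1 on log2(TPM + 1), Cre(-) mice without the flox allele, and each library left out in turn; Cre(-) mice with it, mitochondrial genes left out and both Ddit3 models summed were added after seeing the data. Correlations use log2 CPM with a prior count of 2. Python 3.11.15, pandas 2.3.3 and matplotlib 3.10.9 made tables and figures.

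Members and gene lists were chosen with earlier results of these data known. Named were all members, the up to 4 genes per pathway list with the smallest adjusted p in KI against Cre(-) kidneys, Eif2ak2 for its calls against KI kidneys, the cell type marker lists, Hif1a, Epas1 and Gpnmb, and the 3 genes most correlated with each of Atf4, Ddit3, Trib3 and Asns.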

Additional observations from a re-analysis of the deposited data

Results flagged for a closer look

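In groups of 4 libraries, the distance of the highest or lowest library to its neighbour was set against the range of the group, for the 10 members in Cre(-) and Hif1a KO kidneys. Of 20 such groups 2 had a library far from the others. For Chac1 in Hif1a KO kidneys the highest library, replicate 3 at 3.94 CPM beside 2.54 to 2.73 CPM, stood apart by 0.865 of the range. For Slc3a2 in Cre(-) kidneys the highest, replicate 1 at 335 CPM beside 271.6 to 282 CPM, stood apart by 0.834 of the range. Chance gives such a library in about 1 in 20 groups. Leaving out that Cre(-) library kept the Slc3a2 calls against Cre(-) kidneys in Hif1a KO, Hif2a KO and DKO kidneys.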

How the results depend on the processing

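Of 1480 member values under other settings, 1314 kept their direction and side of the threshold, 56 lost a call, 26 gained one and 84 changed sign. Of those that changed sign 2 passed with the new one, both on TPM: Slc3a2 in KI and Sesn2 in Hif1a KO against Cre(-) kidneys. The cause was not tested. On TPM the members passing were 7 in KI against Cre(-), where 11301 of 17011 genes did, 0 in Hif1a KO against Hif2a KO, where 29 genes did, 2 in DKO against KI (1726 genes) and 4 in DKO against Cre(-) kidneys (11853 genes). Other counts that differ were, with only the groups compared, 1 for Hif1a KO against KI (246 of 16088 genes), 2 for DKO against KI (1028 of 16076) and 7 for Hif2a KO against Cre(-) (9570 of 16248). With DESeq2 they were 2 for Hif2a KO against KI (1015 of 16004) and 7 for Hif2a KO against Cre(-) (10569 of 16988), also 7 with its size factors (10525 of 17011). With Cre(-) mice without the flox allele they were 4, 4 and 2 for Hif1a KO, Hif2a KO and DKO against Cre(-) (9088, 9288 and 8510 of 17254), and with it 5 for KI against Cre(-) (9432 of 17207). Without mitochondrial genes they were 5, 7 and 4 for KI, Hif2a KO and DKO against Cre(-) (10322, 10550 and 9903 of 17017), and with no filter 3 for DKO against Cre(-) (9544 of 27304). Leaving out 1 library in turn gave 1 to 2 members for Hif1a KO against KI, 0 to 1 for Hif1a KO against Hif2a KO, 2 to 5 for DKO against Cre(-), 4 to 6 for KI against Cre(-), 2 to 3 for DKO against KI, 6 to 7 for Hif1a KO against Cre(-), 5 to 6 for Hif2a KO against Cre(-), and 0 to 0 for Hif2a KO against KI and for the interaction.

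With the replicate number as a block, members passing were 0 for Hif1a KO against Hif2a KO, 2 for DKO against KI and 4 for DKO against Cre(-) kidneys, where 19, 1712 and 9468 of 17011 genes passed, and otherwise as without it. The numbers do not pair the samples: of 31 same-numbered pairs 3 had a correlation of deviations above 0.1 (from -0.22 to 0.25). Under the block Psat1 in DKO against KI kidneys was -0.03.

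Log2 fold changes that changed sign were, on TPM, for KI against Cre(-) Chac1 0.02, Sesn2 0.24, Slc3a2 0.34 and Psat1 0.08, for Hif1a KO against KI Phgdh 0.09, for Hif2a KO against KI Trib3 0.02 and Asns 0.00, for DKO against KI Phgdh 0.17, for Hif1a KO against Cre(-) Chac1 0.14, Sesn2 0.33 and Slc3a2 0.16, for Hif2a KO against Cre(-) Sesn2 0.21 and Slc3a2 0.05, for DKO against Cre(-) Asns 0.50, Sesn2 0.21 and Psat1 0.13, and for the interaction Asns 0.01. With Cre(-) mice with the flox allele alone Asns was -0.17, -0.30 and -0.24 in KI, Hif1a KO and Hif2a KO against Cre(-), and with those without it 0.43 in DKO against Cre(-) kidneys. Psat1 in DKO against KI was -0.00 with DESeq2 and -0.00 with its size factors, and Slc3a2 in the interaction was -0.01 with no filter and -0.01 without mitochondrial genes.

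Leaving out 1 library changed the sign of values that did not pass with it. The ranges were, for Asns, -0.04 to 0.42 (KI against Cre(-)), -0.24 to 0.09 (Hif1a KO against KI), -0.22 to 0.13 (Hif2a KO against KI), -0.20 to 0.11 (Hif1a KO against Hif2a KO), -0.15 to 0.29, -0.12 to 0.35 and -0.26 to 0.19 (Hif1a KO, Hif2a KO and DKO against Cre(-)) and -0.24 to 0.12 (interaction). For Chac1 they were -0.15 to 0.56, -0.47 to 0.24 and -0.52 to 0.19 (Hif1a KO, Hif2a KO and DKO against KI) and -0.61 to 0.10 (interaction), and for Sesn2 -0.10 to 0.39, -0.31 to 0.19, -0.34 to 0.16 and -0.42 to 0.07 in the same order. For Phgdh they were -0.19 to 0.08, -0.14 to 0.15 and -0.20 to 0.06 (Hif1a KO, Hif2a KO and DKO against KI), -0.17 to 0.02 (Hif1a KO against Hif2a KO) and -0.16 to 0.12 (interaction). The others were Trib3 -0.33 to 0.05 (Hif2a KO against KI), Slc7a5 -0.01 to 0.26 and Psat1 -0.19 to 0.19 (DKO against KI), and Slc3a2 -0.09 to 0.07 (interaction).

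Depth limits Trib3 and Chac1 most, at under 6 CPM in each library.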
